A study of Mus musculus with 6 samples.

Results

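The genes described here are 10 members of the Toll-like receptor system in the RPE-choroid of mice with subretinal fibrosis (SRF) and of control mice. They are the endosomal receptors Tlr13, Tlr7, Tlr8, Tlr9 and Tlr3, the surface receptors Tlr2 and Tlr4, the co-receptors Cd14 and Ly96, and the adaptor Myd88. The members were chosen by symbol, and all 10 were found among the 15663 genes listed in the tables. RPE-choroid is the retinal pigment epithelium, a pigmented layer behind the photoreceptors, with the vascular choroid beneath it. RNA-seq was performed on RPE-choroid of 3 untreated healthy control mice and 3 SRF mice. All were male C57BL/6J mice supplied at 8 to 10 weeks of age. Their age at RNA collection is not stated. In the SRF mice 4 laser burns were placed in each eye, every lesion was burned again after 10 days, and RNA was taken 20 days after that second burn. Lasered eyes therefore differ from controls in laser injury as well as in fibrosis, and the tissue holds lesions together with choroid between the lesions.

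Toll-like receptors are innate immune sensors of microbial products and of some products of damaged cells. Receptors on the cell surface bind mainly lipids and lipoproteins, whereas those in endosomes bind nucleic acids after these have been taken up and cut. Most of them signal through MyD88 to NF-kB and to interferon regulatory factors, and Tlr3 signals through TRIF. In the back of the eye these receptors are known from resident macrophages and microglia, from infiltrating leukocytes and, for Tlr3 and Tlr4 among others, from the RPE itself.

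Totals over the listed genes were between 13667310 and 24356023 counts per library, at which 3 counts correspond to 0.125 to 0.223 CPM (counts scaled to a common library size). RPE markers were high in every library, with a summed level of 46610 to 54720 CPM in controls and 31940 to 41470 CPM in SRF libraries, and 5 of 12 of them were lower in SRF at an unadjusted p-value under 0.05. Control 1 and SRF 3 stood apart, with a mean level of rod and cone photoreceptor markers of 7.85 and 7.89 on the log2 CPM scale against 3.86 to 5.16 in the other 4 libraries. Member differences are therefore also given for this pair of libraries and for the other 4.

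The sequences of 3 promoters of endosomal receptors are shown. In Tlr13 and Tlr8 all SRF libraries lay above the controls. Tlr8 had more than 50 counts, the level required for testing, only in SRF libraries, so its separation is no support. Tlr9, whose groups overlapped, was too low to be tested. The sequences come from a set of RefSeq promoters on GRCm38.p6. The set available here covered 6 of the 10 members, namely Tlr2, Tlr3, Tlr8, Tlr9, Tlr13 and Myd88. Each is printed 5′ to 3′ on the strand of its gene, up to the base before the earliest start in GENCODE M21. Capitals mark letters that match, on either strand, GAGGAA (the core bound by PU.1, a myeloid lineage factor), GAAANNGAA (the repeat of interferon-stimulated response elements) or TGANTCA (AP-1).
Tlr13, chrX:106143025-106143203, plus strand: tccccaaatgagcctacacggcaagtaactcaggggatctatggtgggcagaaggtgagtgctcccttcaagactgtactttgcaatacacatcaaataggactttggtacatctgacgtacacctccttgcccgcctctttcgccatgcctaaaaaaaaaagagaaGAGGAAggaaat
Tlr8, chrX:167264330-167264579, minus strand: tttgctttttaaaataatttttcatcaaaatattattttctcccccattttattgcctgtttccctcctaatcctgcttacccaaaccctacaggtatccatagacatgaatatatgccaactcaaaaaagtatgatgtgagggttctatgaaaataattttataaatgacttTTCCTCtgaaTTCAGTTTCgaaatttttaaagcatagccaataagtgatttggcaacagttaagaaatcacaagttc
Tlr9, chr9:106222348-106222597, plus strand: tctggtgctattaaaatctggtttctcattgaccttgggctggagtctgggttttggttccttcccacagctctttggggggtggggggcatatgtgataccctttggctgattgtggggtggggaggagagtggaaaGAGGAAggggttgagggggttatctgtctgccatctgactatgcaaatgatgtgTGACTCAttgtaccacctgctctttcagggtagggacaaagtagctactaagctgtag

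GAGGAA was found in the promoters of Tlr13, Tlr8 and Tlr9, at bases -83 to -78, -77 to -72 and -112 to -107 from the RefSeq start, and in Tlr9 also at 13 to 18. It occurs in 28.3% of the 32851 promoters of the same length, which run from 250 bases before to 50 bases after the start. The letters GAAANNGAA were found in Tlr8 at -67 to -59 and in Myd88 at -40 to -32, and 8.56% of promoters hold them. GGANTTTCC, an NF-kB form, was found in Tlr3 at -210 to -202 and in Myd88 at 5 to 13, and 1.25% of promoters hold it. The windows of Tlr3 and Myd88 lie wholly inside the genes as annotated in GENCODE M21, downstream of their earliest starts. TGANTCA was found in Tlr9 alone among the 6, at -58 to -52 (7.81% of promoters), and the E-box CACGTG (7.15% of promoters) in none of them. The Tlr2 window held none of the 5. No 2 matches in these windows shared a letter, and a match describes letters only.

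None of the 9 members that could be tested passed the thresholds of the edgeR quasi-likelihood test, namely an adjusted p-value under 0.05 together with a log2 difference of 0.5 or more in either direction, and 0.0% of all 13454 tested genes passed them. Without control 1 and SRF 3, edgeR called 153 genes, none of them a member. The 3 receptors Tlr13, Tlr8 and Tlr7 had the highest log2 fold changes of the members, and Tlr13 was the only member that DESeq2 called. DESeq2 gave p-values for 13373 genes and called 108 of them, 0.808%, higher in SRF. At an unadjusted p-value under 0.05, Tlr13 and Tlr7 were higher in SRF (4.16% of all tested genes were, or 560) and no member was lower (2.85% were, or 383), and without control 3 or without SRF 1 only Tlr13 remained at that level. In CPM, all 3 SRF libraries lay above all 3 controls in 4 of the 9 members, Tlr13, Tlr7, Tlr8 and Cd14, as in 6.71% of tested genes. They lay below the controls in Tlr3, as in 6.43%. The log2 fold change was above 0 in 7 members and below 0 in 2, with a median of 0.27 against 0.00 over all tested genes. Of these members, Tlr8 passed the filter on low counts, more than 50 counts in at least 2 libraries, only through its SRF libraries. Its place among the 4 and the 7, and in the median, is therefore no support.

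**Figure D1:**
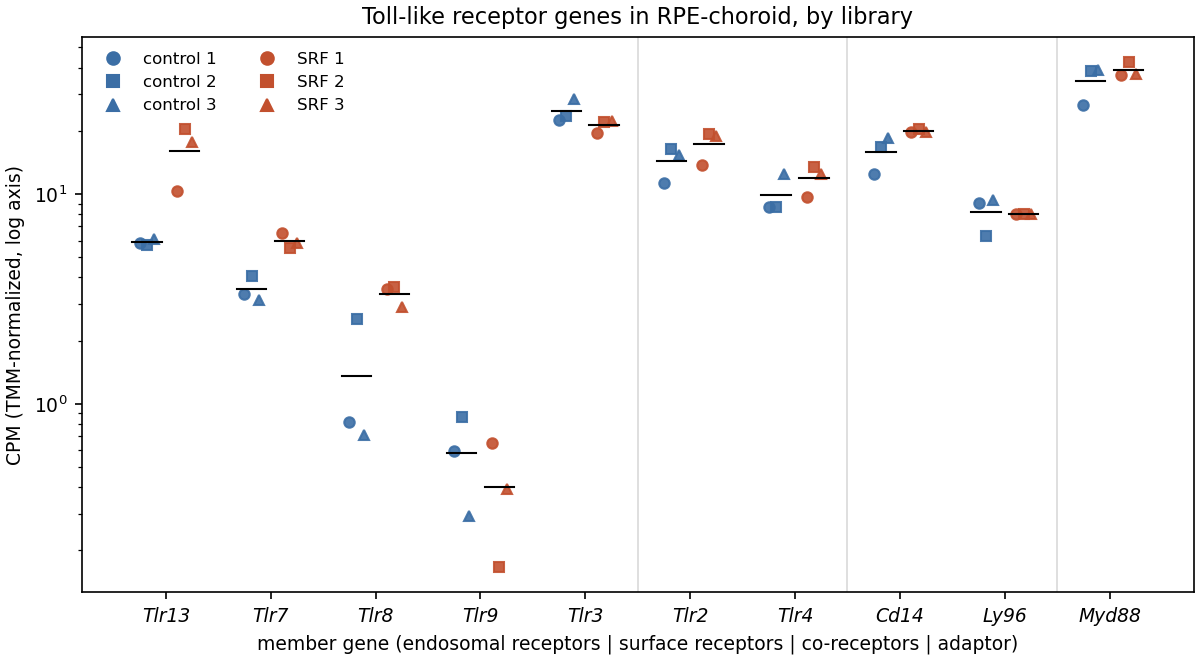
CPM of the 10 members in each library, on a log axis, with the libraries as points and a bar at the mean of each group (n = 3). The SRF points of Tlr13, Tlr7, Tlr8 and Cd14 lie above all control points, those of Tlr3 lie below, and the remaining members overlap.

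Tlr13 (chrX:106143204-106160493, plus strand) is an endosomal receptor for a conserved stretch of bacterial ribosomal RNA and has no counterpart in humans. Its level was 5.87, 5.74 and 6.08 CPM in the control libraries and 10.4, 20.3 and 17.6 CPM in the SRF libraries. The controls lay within a narrow range and every SRF library was above them, SRF 1 the least. This was a log2 fold change of 1.45 (SE 0.27, 95% interval 0.81 to 2.08), or 2.73-fold, with an adjusted p-value of 0.247 by edgeR's quasi-likelihood method (Benjamini-Hochberg adjustment). DESeq2, the tool named in the study's methods, gave a log2 fold change of 1.44 and an adjusted p-value of 0.00155, so the call rests on the tool. The difference was 1.58 on the log2 scale between the photoreceptor-rich libraries SRF 3 and control 1 and 1.38 among the other 4, so it was of like size in both.

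Tlr7 (chrX:167304929-167330558, minus strand) and Tlr8 (chrX:167242696-167264329, minus strand) are neighbouring genes for endosomal receptors of RNA. Tlr7 was measured at 3.34, 4.06 and 3.12 CPM in controls and at 6.53, 5.50 and 5.81 CPM in SRF libraries. The 3 SRF values lay close together and above every control. Its log2 fold change was 0.76 (SE 0.25, 95% interval 0.16 to 1.36), with an adjusted p-value of 0.558 by edgeR's quasi-likelihood method (Benjamini-Hochberg adjustment), and it was 0.80 and 0.74 in the photoreceptor-rich pair and in the other 4 libraries. Tlr8 was at 0.817, 2.54 and 0.708 CPM in controls, from 11, 47 and 17 counts, and at 3.51, 3.61 and 2.91 CPM in SRF libraries, from 65, 65 and 52 counts. Control 2 lay near the SRF range and the other controls well below it. Because Tlr8 passed the filter on low counts only through its SRF libraries, its separation and fold change are no support. The log2 fold change of Tlr8 was 1.29 (SE 0.55, 95% interval -0.01 to 2.60; adjusted p = 0.722 by edgeR with Benjamini-Hochberg adjustment), and without control 2 it was 2.13. It was 1.83 between SRF 3 and control 1 and 1.13 among the other 4.

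Tlr9 (chr9:106222598-106226883, plus strand), the endosomal receptor for unmethylated CpG DNA, had 3 to 16 counts in every library and was too low to be tested. Its level was 0.594, 0.866 and 0.291 CPM in controls and 0.647, 0.167 and 0.391 CPM in SRF libraries. The groups overlapped, SRF 2 was at the level of 3 counts, and a difference was not detectable at this depth in the pair (-0.60 on the log2 scale) or among the other 4 libraries (-0.51).

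Tlr3 (chr8:45395665-45411080, minus strand) is the endosomal receptor for duplex RNA. It was at 22.5, 23.5 and 28.4 CPM in controls and at 19.6, 22.1 and 22.3 CPM in SRF libraries. All SRF values lay below the controls, but the highest SRF and the lowest control value nearly met. On the FPKM scale the groups overlapped, at 7.35 to 10.39 in controls and 6.92 to 8.25 in SRF libraries. Its log2 fold change was -0.22 (SE 0.14, 95% interval -0.55 to 0.11; adjusted p = 0.884 by edgeR with Benjamini-Hochberg adjustment), with an upper bound far under the lower bound of Tlr13. It was -0.01 between SRF 3 and control 1, -0.32 among the other 4 libraries and -0.11 without control 3. Among the windows of 50 bases in its longest transcript, 1.56% also occur in the transcript of the antisense gene Gm45542, which is not listed in the tables.

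**Figure D2:**
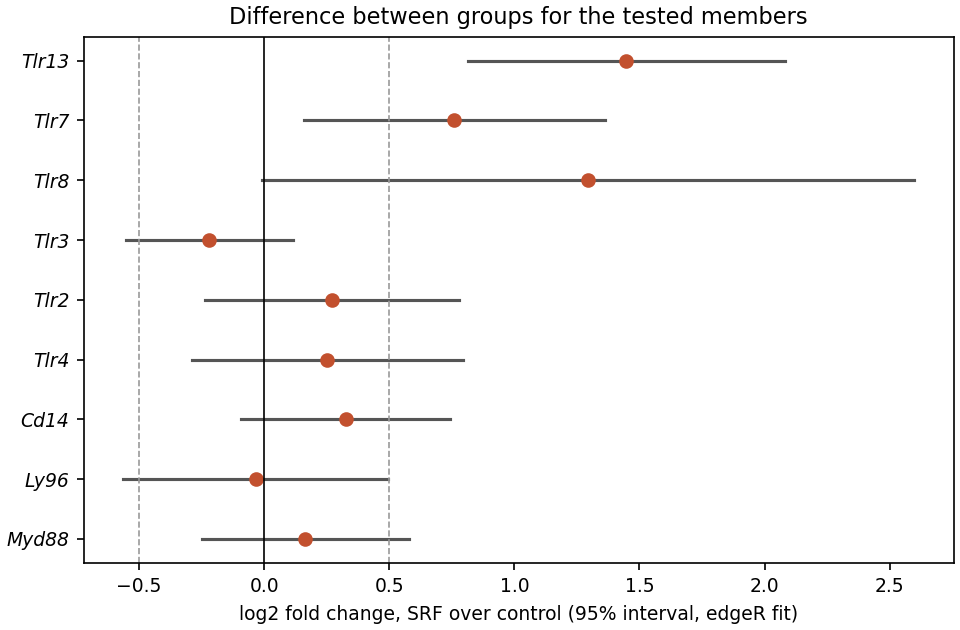
Log2 fold change of each tested member, SRF over control (points), with the 95% interval of the edgeR fit (lines); dashed lines mark 0.5 either way. The intervals of Tlr13 (0.81 to 2.08) and Tlr7 (0.16 to 1.36) lie above 0, and the others include 0.

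Tlr2 (chr3:83836272-83841767, minus strand) senses bacterial lipoproteins together with Tlr1 or Tlr6. Its level was 11.2, 16.5 and 15.4 CPM in controls and 13.8, 19.4 and 18.9 CPM in SRF libraries, so the groups overlapped. This gave a log2 fold change of 0.27 (SE 0.21, 95% interval -0.24 to 0.78). Tlr4 (chr4:66827584-66930284, plus strand) is the receptor for bacterial lipopolysaccharide. It was at 8.69, 8.72 and 12.4 CPM in controls and at 9.66, 13.4 and 12.5 CPM in SRF libraries, again with overlap, and its log2 fold change was 0.25 (SE 0.23, 95% interval -0.29 to 0.79). For both genes the difference was greater between SRF 3 and control 1, at 0.75 for Tlr2 and 0.52 for Tlr4, than among the other 4 libraries, at 0.06 and 0.13. Without control 1 it was 0.13 for Tlr2 and 0.17 for Tlr4.

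Cd14 and Ly96 encode the proteins that hand lipopolysaccharide to Tlr4: CD14 carries it to the cell surface and MD-2, the product of Ly96, binds it in complex with the receptor. Cd14 was at 12.4, 16.7 and 18.5 CPM in controls and at 19.6, 20.4 and 19.7 CPM in SRF libraries. The SRF values were nearly alike and all above the controls, of which control 1 was the lowest. Its log2 fold change was 0.33 (SE 0.18, 95% interval -0.09 to 0.74), and it was 0.67 between SRF 3 and control 1, 0.19 among the other 4 and 0.18 without control 1. Ly96 (chr1:16688051-16709611, plus strand) was at 9.06, 6.28 and 9.33 CPM in controls and at 8.04, 8.06 and 7.99 CPM in SRF libraries. The SRF values of Ly96 lay inside the control range, and its log2 fold change was -0.03 (SE 0.22, 95% interval -0.56 to 0.49), with -0.18 in the pair and 0.04 among the other 4.

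Myd88 (chr9:119335934-119341411, minus strand) encodes the adaptor that joins most of these receptors to the IRAK kinases. It was at 26.4, 38.5 and 39.0 CPM in controls and at 37.0, 42.6 and 37.2 CPM in SRF libraries. Control 1 was low and the other controls lay within or near the SRF range. For Myd88 the log2 fold change was 0.16 (SE 0.17, 95% interval -0.25 to 0.58). It was 0.49 between SRF 3 and control 1, 0.04 among the other 4 and 0.01 without control 1. The gene overlaps Acaa1a on the opposite strand, which had up to 3004 counts, and 7.26% of the 50-base windows of its longest transcript also occur in a transcript of Acaa1a, so the count of Myd88 is uncertain where strand was not used. For Tlr2, Tlr4, Cd14, Ly96 and Myd88 the adjusted p-values by edgeR's quasi-likelihood method (Benjamini-Hochberg adjustment) lay between 0.827 and 0.9999, and the upper bounds of their intervals were between 0.49 and 0.79.

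Levels of different members were compared on the FPKM scale, which divides by transcript length. In controls the order was Myd88 (17.4 ± 3.56 FPKM, SD, n = 3), Ly96 (12.8 ± 2.67), Cd14 (9.51 ± 1.88), Tlr3 (8.5 ± 1.65), Tlr2 (4.68 ± 0.894), Tlr4 (2.41 ± 0.534), Tlr13 (1.43 ± 0.0503), Tlr7 (0.913 ± 0.123), Tlr8 (0.550 ± 0.295) and Tlr9 (0.163 ± 0.0802). The neighbours from Myd88 down to Tlr3 overlapped between libraries, as did Tlr8 and Tlr9, and the remaining neighbours were apart. Co-receptors and adaptor thus lay above the receptors other than Tlr3. In SRF libraries Tlr13, at 4.04 ± 1.31 FPKM, overlapped Tlr2 (5.85 ± 1.07) and Tlr4 (2.97 ± 0.481), from which it was apart in controls. Myd88 (20.7 ± 1.44), Ly96 (12.9 ± 0.193), Cd14 (12.4 ± 0.370) and Tlr3 (7.42 ± 0.722) stayed in the same order. Tlr7 (1.74 ± 0.240) and Tlr8 (1.65 ± 0.444) overlapped each other in SRF, and Tlr9 (0.117 ± 0.0702) was again the lowest. The ratio of FPKM to CPM of Tlr8 varied 3.01-fold between libraries, against a median of 1.03 over all tested genes, so its FPKM values depend on the transcript length used in each library.

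Most markers of macrophages and microglia were higher in SRF libraries as well. Of 24 such markers, all were tested, 16 were higher in SRF at an unadjusted p-value under 0.05, none was lower, 10 were called by DESeq2, and the median log2 fold change was 0.75. The log2 fold change was above 0 in 23 of them. It was -0.03 in Csf1r, at 162 and 159 CPM in control and SRF means, and 0.03 in Itgam, both with overlapping groups. Every gene in the tables had at least 1 count in every library, so no marker could be at 0. A gene that is not in the tables may still have had counts in some libraries. The markers of highest FPKM were Lyz2, the lysozyme of myeloid cells, at 913 and 2568 CPM in control and SRF means, and the complement genes C1qb (140 and 261 CPM) and C1qc (137 and 242 CPM). Their summed level was 1846 to 2389 CPM in controls and 4002 to 5650 CPM in SRF libraries, a difference of 1.08 on the log2 scale (two-sided exact permutation p = 0.1, which is the lowest value possible with 3 against 3). In bulk tissue more cells of a type and more RNA per cell cannot be told apart.

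Member levels were therefore set against this marker level, as CPM per 1000 CPM of summed markers. Tlr13 was at 3.18, 2.45 and 2.54 in controls and at 2.59, 3.60 and 4.12 in SRF libraries, a log2 difference of 0.32 with overlapping groups (exact permutation test, two-sided, p = 0.2). Against the mean log2 level of the markers, which gives each marker equal weight, it was 0.69 with all SRF libraries above. Tlr7 was at 1.81, 1.73 and 1.31 in controls and at 1.63, 0.974 and 1.36 in SRF libraries, a log2 difference of -0.31 with overlap that turned to 0.06 against the mean log2 level. Tlr8 differed by 0.47 with overlap. The direction of the relative level of Tlr7 was thus set by the choice of the marker measure.

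Relative to the same marker level, 6 members were lower in every SRF library than in every control, each at the smallest p-value that the exact permutation test allows, 0.1, two-sided. Their log2 differences were -1.29 for Tlr3, -1.09 for Ly96, -0.89 for Myd88, -0.81 for Tlr4, -0.80 for Tlr2 and -0.73 for Cd14. The 6 were also below the controls against the mean log2 level of the markers, with Tlr3 at -0.91 and Cd14 at -0.35. In these 6 the marker level differed between groups by more than the gene did. The marker sum differed by 1.08 on the log2 scale, so a gene with no difference in CPM would also be lower here. How many of all tested genes lay below the controls on this scale was not computed. The count of 6 is therefore no result about the members. All 6 were divided by that same marker level, whose groups did not overlap and in which Lyz2 alone was at 2568 CPM in the SRF mean. The 6 p-values are therefore not separate results and are no support for a change in any of these genes. Tlr9 differed by -1.68 with overlapping groups, from the few counts given above.

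**Figure D3:**
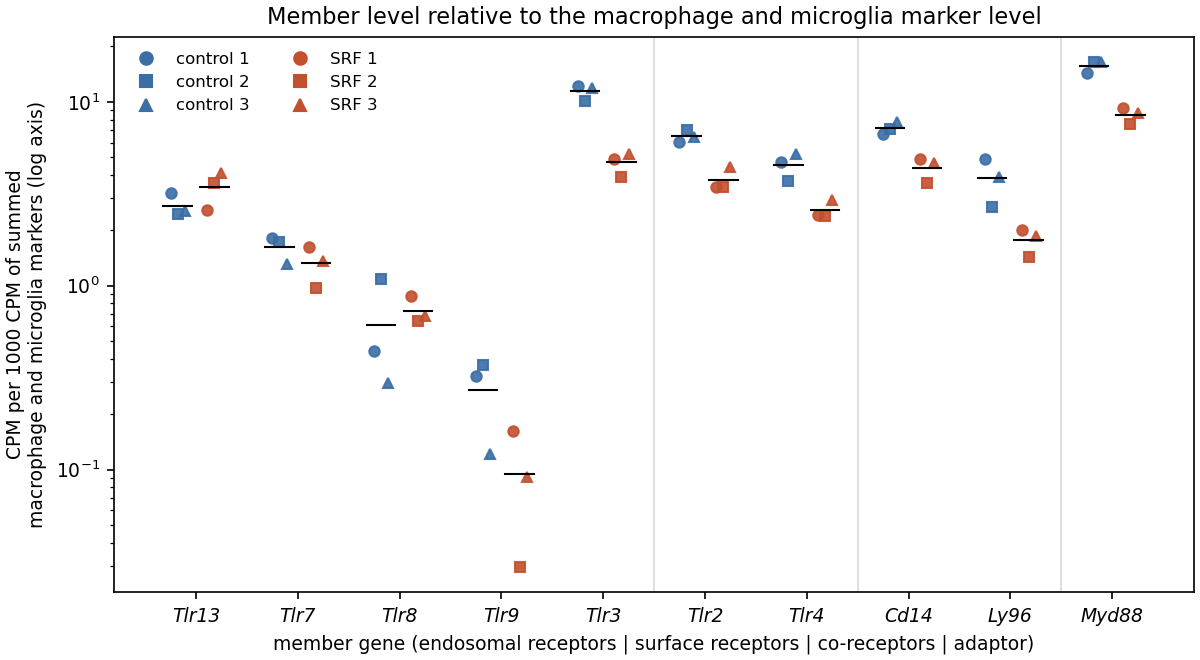
CPM of each member per 1000 CPM of the 24 summed macrophage and microglia markers, by library on a log axis, with a bar at each group's mean (n = 3). Tlr13, Tlr7, Tlr8 and Tlr9 overlap between groups, and the SRF points of the other 6 members lie below all control points.

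Other leukocytes also express these receptors, and their marker levels are given for that reason. Mast cell markers summed to 39.1 to 44.7 CPM in controls and 61.7 to 70.5 CPM in SRF libraries, and 4 of 5 tested, the granule protease genes Cpa3, Cma1, Tpsb2 and Mcpt4, were higher at an unadjusted p-value under 0.05, of which Mcpt4 passed the filter on low counts only through its SRF libraries. Neutrophil markers summed to 16.8 to 20.8 and 20 to 22.7 CPM, with 4 of 10 tested and 1 higher, and B cell markers to 9.69 to 16.3 and 15.8 to 23.0 CPM, with 2 of 8 tested and none higher. Dendritic cell markers summed to 37.5 to 42.9 and 43.2 to 49.2 CPM, with 4 of 8 tested and 1 higher. T cell and NK cell markers summed to 19.8 to 21.5 CPM in controls and 13.0 to 15.8 CPM in SRF libraries, with 2 of 10 tested and 1 lower. Of these lists, the neutrophil genes Ly6g and Ngp and the mast cell genes Fcer1a and Ms4a2 are not in the tables, which does not show that they were absent from every library. The part of any of these cell types in the member levels was not tested.

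The 5 tested genes whose profile over the 6 libraries was nearest to that of Tlr13 were Itgb2, Adam8, Clec7a, Pirb and Ctss. Likeness was the root mean square difference of log2 CPM after each gene was centred on its own mean, and it was 0.111 for Itgb2, the beta chain of the leukocyte integrins, and 0.126 for Adam8, a membrane metalloprotease. Clec7a, the beta-glucan receptor dectin-1, followed at 0.164, the inhibitory receptor gene Pirb at 0.185 and the protease gene Ctss at 0.188. In Itgb2 as in Tlr13, SRF 1 was the lowest SRF library, at 29.5 CPM against 49.1 and 43.5 CPM, and the controls were at 16.3, 17.3 and 17.2 CPM. For Tlr7 the nearest were Cd300a (0.0797), an inhibitory receptor of myeloid cells, Mlxipl (0.0912), Lrig3 (0.0979), Zbtb22 (0.105) and Gsdmd (0.110), the gene of the pore-forming protein of pyroptosis. Cd300a was at 11.5, 14.0 and 11.5 CPM in controls and at 22.6, 20.9 and 18.5 CPM in SRF libraries. These profiles share libraries and were ranked on the same 6 values, and no test was made.

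Beyond the members, 98 genes of the pathway were followed in 8 lists, of which 91 are listed and 80 were tested. None was called by edgeR's quasi-likelihood test and 2, Ctss and Ly86, were called by DESeq2. At an unadjusted p-value under 0.05, 15 of the 80 were higher and 1 was lower, against 4.16% and 2.85% of all tested genes. The 15 include Ccl3, which passed the filter on low counts only through its SRF libraries and so is no support. All SRF libraries lay above the controls in 19 and below them in 4, against 6.71% and 6.43%, and the median log2 fold change was 0.12 against 0.00 over all tested genes. Of the 15, 7 belong to receptor folding, trafficking and ligand processing and 3 to the transcription factors. Without SRF 2 the number that were higher was 5, and without control 2 it was 9.

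Among 15 genes for receptor folding, trafficking and ligand processing, 7 were higher at an unadjusted p-value under 0.05 and none was lower, with a median log2 fold change of 0.35. Ctss, the lysosomal protease cathepsin S that can cut endosomal receptors into their active form, was at 172, 177 and 191 CPM in controls and at 447, 676 and 529 CPM in SRF libraries. The SRF levels of Ctss were all well above the controls, with a log2 fold change of 1.61 (SE 0.17; adjusted p = 0.106 by edgeR with Benjamini-Hochberg adjustment). Unc93b1, the chaperone that carries the endosomal receptors from the endoplasmic reticulum, had a log2 fold change of 0.55 (SE 0.17). Slc15a3, an endolysosomal transporter, differed by 0.87 (SE 0.28), the proteases Lgmn and Ctsb by 0.43 (SE 0.14) and 0.39 (SE 0.14), and the nuclease-family gene Pld3 by 0.35 (SE 0.11), all with SRF above every control. Pld4, the other gene at an unadjusted p-value under 0.05, differed by 0.65 with overlap. The folding chaperone Hsp90b1 (-0.05) and the trafficking gene Cnpy3 (0.13) overlapped between groups, and Rnaset2a and Rnaset2b, near-identical copies whose reads may be split, are uncertain.

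The co-receptor and ligand delivery list had 5 tested genes and a median of 0.31. Ly86, which encodes MD-1, the partner of the receptor-like protein Cd180, was at 12.0 ± 0.466 CPM (SD, n = 3) in controls and 20.3 ± 1.03 CPM in SRF libraries, with a log2 fold change of 0.76 (SE 0.13; adjusted p = 0.227 by edgeR with Benjamini-Hochberg adjustment). The scavenger receptor Cd36 was at 57.5 ± 8.09 and 77.5 ± 5.71 CPM, a log2 fold change of 0.43 (SE 0.14), also with SRF above. Lbp, which binds lipopolysaccharide in plasma, overlapped at 0.31 (SE 0.17), and the alarmin Hmgb1 was at 794 ± 26.6 and 745 ± 16.9 CPM (-0.09, SE 0.10). Of 6 other Toll-like receptor genes 5 are listed and 3 were tested, Cd180 (1.22, SE 0.63), Tlr6 (0.80, SE 0.45) and Tlr1 (0.74, SE 0.48), each under 5 CPM in both group means, with overlap and with unadjusted p-values of 0.05 or above. Cd180 and Tlr6 passed the filter only through their SRF libraries, so the median of 0.80 for these 3 genes is no support. Tlr5 and Tlr12 were too low to be tested, and Tlr11 is not in the tables.

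Among adaptors other than Myd88, 4 were tested, with a median of -0.07. Tirap, which links Myd88 to Tlr2 and Tlr4, was at 33.6 ± 3.00 CPM in controls and 25.7 ± 2.96 CPM in SRF libraries, with SRF below and a log2 fold change of -0.39 (SE 0.13; adjusted p = 0.578 by edgeR with Benjamini-Hochberg adjustment). Ticam1, which encodes TRIF, the adaptor of Tlr3, was at 8.17 ± 0.893 and 8.80 ± 1.66 CPM, with overlap. None of the 18 kinases and ubiquitin ligases reached an unadjusted p-value under 0.05, and their median was -0.05, with Chuk (-0.20, SE 0.11), Peli1 (-0.06, SE 0.14) and Ikbkb (0.18, SE 0.11) the highest in FPKM. The medians of these lists mix genes of either direction.

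Of the 10 transcription factors, 3 were higher at an unadjusted p-value under 0.05, with a list median of 0.14. Irf5, a factor activated downstream of Myd88, was at 9.71 ± 2.59 and 16.0 ± 2.26 CPM (log2 fold change 0.71, SE 0.23), Irf8, a lineage factor of macrophages, at 21.7 ± 1.47 and 31.6 ± 5.56 CPM (0.54, SE 0.16), and Nfkb1 at 23.2 ± 2.55 and 30.9 ± 2.16 CPM (0.41, SE 0.13). The SRF libraries lay above all controls in these 3, whereas Rela (0.19), Irf1 (-0.09) and Irf3 (0.09) overlapped. Of 16 negative regulators 15 were tested and 2 were higher at an unadjusted p-value under 0.05, Socs1 (0.80, SE 0.23) and Socs3 (0.54, SE 0.17), inhibitors of cytokine signalling. The list median was 0.14, and Nfkbia (0.14), Tollip (-0.06) and Dusp1 (-0.88, SE 0.38) overlapped between groups.

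Of 22 cytokine and other target genes that these pathways are known to induce, 17 are listed and 10 were tested. Il6, Il10, Il12a, Cxcl2 and Ifnb1 are not in the tables, but may still have had counts in some libraries. The median log2 fold change of those tested was -0.06, and among them Ccl3 passed the filter on low counts only through its SRF libraries, and Il1a, Il1b and Cxcl1 only through controls. The chemokine gene Ccl3, which had therefore to differ and whose p-value is no support, was at 0.942 ± 0.602 CPM in controls and 2.88 ± 1.19 CPM in SRF libraries with overlap (log2 fold change 1.64, SE 0.59). Icam1, an adhesion molecule gene at 78.5 ± 10.1 and 93.3 ± 5.13 CPM (0.25, SE 0.13), and Il1rn (0.10, SE 0.47) overlapped, and Ccl5 was at 5.41 ± 0.864 and 3.54 ± 0.513 CPM with SRF below (-0.61, SE 0.27). Tnf, at 0.727 ± 0.452 and 1.24 ± 0.484 CPM, was too low to be tested.

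**Figure D4:**
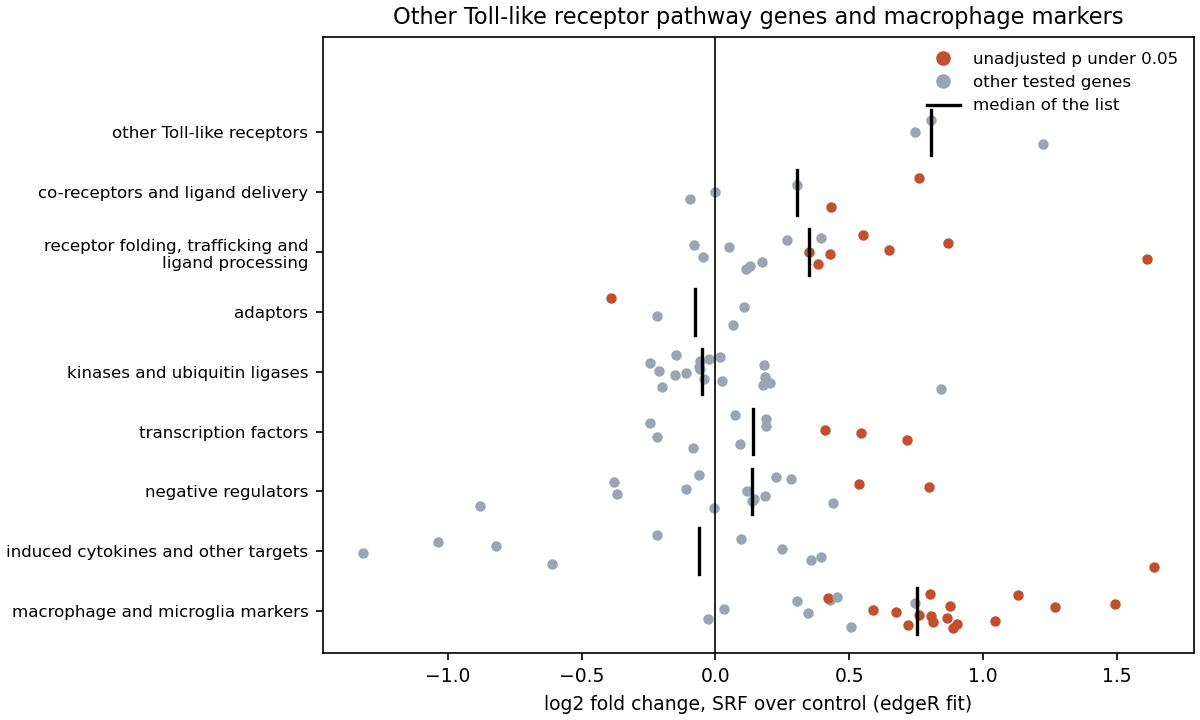
Log2 fold change, SRF over control, of every tested gene in the 8 pathway lists and the macrophage and microglia markers (points, with those at an unadjusted p-value under 0.05 in red) and the median of each list (bars). The medians are 0.80 for other Toll-like receptors, 0.75 for macrophage and microglia markers, 0.35 for folding, trafficking and processing, and 0.31 for co-receptors and ligand delivery. They are between -0.07 and 0.14 for adaptors, kinases, transcription factors, negative regulators and targets. The 0.80 rests on 3 tested genes, of which Cd180 and Tlr6 passed the filter on low counts only through SRF libraries.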

How the data were processed

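RPE-choroid RNA from 3 control and 3 SRF mice was analysed. The authors filtered reads with FASTP, counted them per gene with StringTie and deposited whole-number counts without normalization, together with FPKM, which they scaled by transcript length and mapped reads. The aligner, genome build, annotation and strandedness are not given in the sources used here. Names and positions come from GENCODE M21 on GRCm38, which holds 15659 of the 15663 gene identifiers.

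A count above 50 in 2 or more libraries was required, which left 13454 genes, and these were compared with edgeR 4.0.16 in R 4.3.3 (TMM, estimateDisp, glmQLFit in its older form, glmQLFTest, group as the only term), with Benjamini-Hochberg adjustment over all of them. Calls needed an adjusted p-value under 0.05 with a log2 difference of 0.5 or more in either direction. The median standard error was 0.19 on the log2 scale, which limits what these depths can show. Alternatives were DESeq2 1.42.0, limma 3.58.1 on log2 FPKM with a pseudocount of 0.1 or 1, other normalizations and filters, a photoreceptor covariate, and libraries left out. The summed levels of the other leukocyte markers were an addition made once the data were known. The edgeR script was first tested on simulated data.

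Samples were grouped by their titles. The members and the lists were chosen with earlier results of these data known. Named were all members, pathway genes at an unadjusted p-value under 0.05 whose groups did not overlap, otherwise at most 3 of highest mean FPKM per pathway list, at most 3 markers of highest mean FPKM per marker list, and the 5 nearest profiles of members at an unadjusted p-value under 0.05. Genes named outside this rule (Pld4, Ccl3, Tnf, Il1a, Il1b, Cxcl1, Hsp90b1, Cnpy3, Rnaset2a, Rnaset2b, the receptors below the filter, the mast cell gene Mcpt4, the macrophage genes Csf1r and Itgam, and genes not in the tables) were chosen after their values were seen. The dendritic cell genes Flt3, Xcr1 and Ccr9 were likewise named outside this rule, after their values were seen. Single values were compared by exact permutation tests.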

Additional observations from a re-analysis of the deposited data

How the results depend on the processing

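The number of members called, 0 with edgeR, was 1 (Tlr13) with DESeq2 and 1 with DESeq2 and the replicate block, and 0 under the other 16 alternatives. Leaving out each library gave 0 in every case. Over all tested genes the number called was 0 with edgeR, 153 with DESeq2, 201 with DESeq2 and the replicate block, 153 with edgeR without the 2 photoreceptor-rich libraries (Tlr13 at an adjusted p of 0.0894 there), and 0 to 5 under the remaining alternatives. The log2 fold change of Tlr13 was 1.02 to 1.68 over 18 alternatives, with adjusted p-values of 0.00155 to 0.9999, and in DESeq2 with the replicate block it was 1.40. The count of members at an unadjusted p-value under 0.05 was 2, and 1 to 3 with a library left out, being 1 without control 3 and 1 without SRF 1. Of the 80 pathway genes, 15 were higher at that level, Ccl3 among them. With a library left out the number was 5 to 16, with 9 without control 2 and 5 without SRF 2. Ly96, at -0.03, turned to 0.039 (pseudocount 0.1) and 0.035 (pseudocount 1) with limma on FPKM, 0.014 with library totals alone and 0.035 without the 2 photoreceptor-rich libraries, and lay between -0.20 and 0.068 with a library left out, above 0 without control 1 (0.042) and without control 3 (0.068). Relative to the mean log2 marker level, Tlr7 turned to 0.061 from -0.31. The causes were not tested. Tlr8 was 0.78 to 2.13 and was not tested at a mean count of at least 50. The other 6 tested members kept their sign under all 18 alternatives, but with a library left out Myd88 was 0.0063 to 0.26, Tlr2 0.13 to 0.41, Tlr4 0.15 to 0.45, Cd14 0.18 to 0.45, Tlr3 -0.28 to -0.11 and Tlr7 0.68 to 0.88; the lowest sizes were without control 1 for Myd88, Tlr2 and Cd14, without SRF 2 for Tlr4 and without control 3 for Tlr3 and Tlr7. For numbers 1, 2 and 3, the correlation between the control and the SRF library was -0.48, 0.48 and -0.30. These values differ in sign, rest on 3 libraries per group, and include control 1 and SRF 3, which stood apart in photoreceptor level. The correlations therefore cannot decide whether the numbers pair the mice. With the replicate block in edgeR the count of members called was 0 and the log2 fold change of Tlr13 was 1.40 (adjusted p = 0.386, edgeR).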
